A study of Mus musculus with 3 samples.

Results

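Cell cycle and replication genes were followed across the leukocyte clusters of the mouse sciatic nerve. The genes were chosen by name and not by their values: the replicative helicase genes Mcm2 to Mcm7, every Cenp gene of the centromere, 8 kinesin genes of the Kif family, the A, B and E cyclins, every replication-type histone gene named Hist1h to Hist4h, and Mki67, Top2a, Birc5, Ube2c, Cdk1, Pclaf, Pcna, Tyms, Rrm2 and Stmn1. The rule takes 113 of the 17168 genes in the count table. For description they were divided into 12 genes of S phase, 19 genes of G2 and mitosis (written G2/M), 18 other centromere genes, 63 histone genes, and Stmn1, which stands alone. In all 3 libraries the cells were CD45+ leukocytes of sciatic nerves from mice of the genotype NOD.AIRE GW/+, aged 15 weeks. Aire lets thymic cells show proteins of other organs to developing T cells, and these mice of the autoimmune strain NOD carry an altered Aire allele beside a normal one. Libraries 1 and 2 are 3′ libraries of 6033 and 2333 cells, and library 3 is a 5′ library of 3274 cells. Wild-type nerves were not analysed here, so every comparison is between cell clusters of the same nerves, and the labels do not say whether a library is 1 animal or a pool.

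A dividing cell first licenses its DNA with the ring-shaped MCM helicase, then copies it in S phase with the help of the sliding clamp Pcna and of enzymes that make deoxynucleotides, and at the same time makes new histones. In G2 and mitosis, Cdk1 with cyclins A and B drives chromosome condensation, kinesins build the spindle, and centromere proteins tie chromosomes to it. Most T cells in tissue rest outside the cycle, and activated CD8 T cells are known to divide fast after they meet antigen. Replication-type histone mRNAs mostly end in a stem-loop and not in a poly(A) tail, so methods that read poly(A) RNA, as here, can miss part of them.

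Cells carry the 14 clusters and the class names that the authors deposited. Cd8a had 915 CPM in cluster 4 and 551 CPM in cluster 3, both named Cd8. Foxp3 had 500.1 CPM in the Treg cluster 2, against 12.4 CPM in the Cd4 cluster 0. CPM stands for UMIs per 1000000 UMIs of a cluster in a library, where a UMI is 1 counted molecule. Cluster 5, also named Cd4, is shallow (median 861 UMIs a cell) and had both Cd4, at 545 CPM, and Cd8a, at 741 CPM. Libraries held 22587246, 11398628 and 13791264 UMIs, and the chosen genes made up 59324 of these in all, or 0.124%. Of the 113 genes, 103 had 10 UMIs or more. The most genes in a deposited cell is 2997, and 6 cell barcodes occur in more than 1 library. The authors' clusters rest on the counts tested here, so a p between clusters does not say that the clusters are distinct. It sets a difference against a spread estimated over all tested clusters together. A small p therefore does not mean that the 3 libraries share a difference evenly. The p covers only the spread between these libraries, which may be technical.

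G2/M genes stood highest in CD8 cluster 4, in each of the 3 libraries. Summed over the 19 genes, the level was 1599, 431 and 700 CPM in libraries 1, 2 and 3 of cluster 4, against 165, 170 and 114 CPM in cluster 3. The 2 CD8 clusters did not overlap, and within cluster 4 library 1 was far above library 2. The Treg cluster had 285, 274 and 192 CPM, the Cd4 cluster 0 had 222, 194 and 183 CPM, and the shallow cluster 5 had 468, 391 and 491 CPM. Macrophages of cluster 7 were low, at 92.5, 55.8 and 92.7 CPM, and so were plasmacytoid dendritic cells and plasma cells, at means of 65.0 ± 12.1 and 62.1 ± 25.3 CPM (SD, n = 3 libraries each, with 2 and 7 cells in their smallest libraries).

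S phase genes followed with a smaller gap. Their sum was 1019, 308 and 667 CPM in cluster 4, against 240, 230 and 360 CPM in cluster 3, so that library 2 of cluster 4 lay below library 3 of cluster 3. Histone genes gave 1698, 335 and 374 CPM in cluster 4, against 437, 280 and 264 CPM in cluster 3, with library 1 of cluster 4 far above the rest. The other centromere genes showed the smallest gap, with 489, 337 and 277 CPM in cluster 4, against 247, 284 and 232 CPM in cluster 3.

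**Figure D1:**
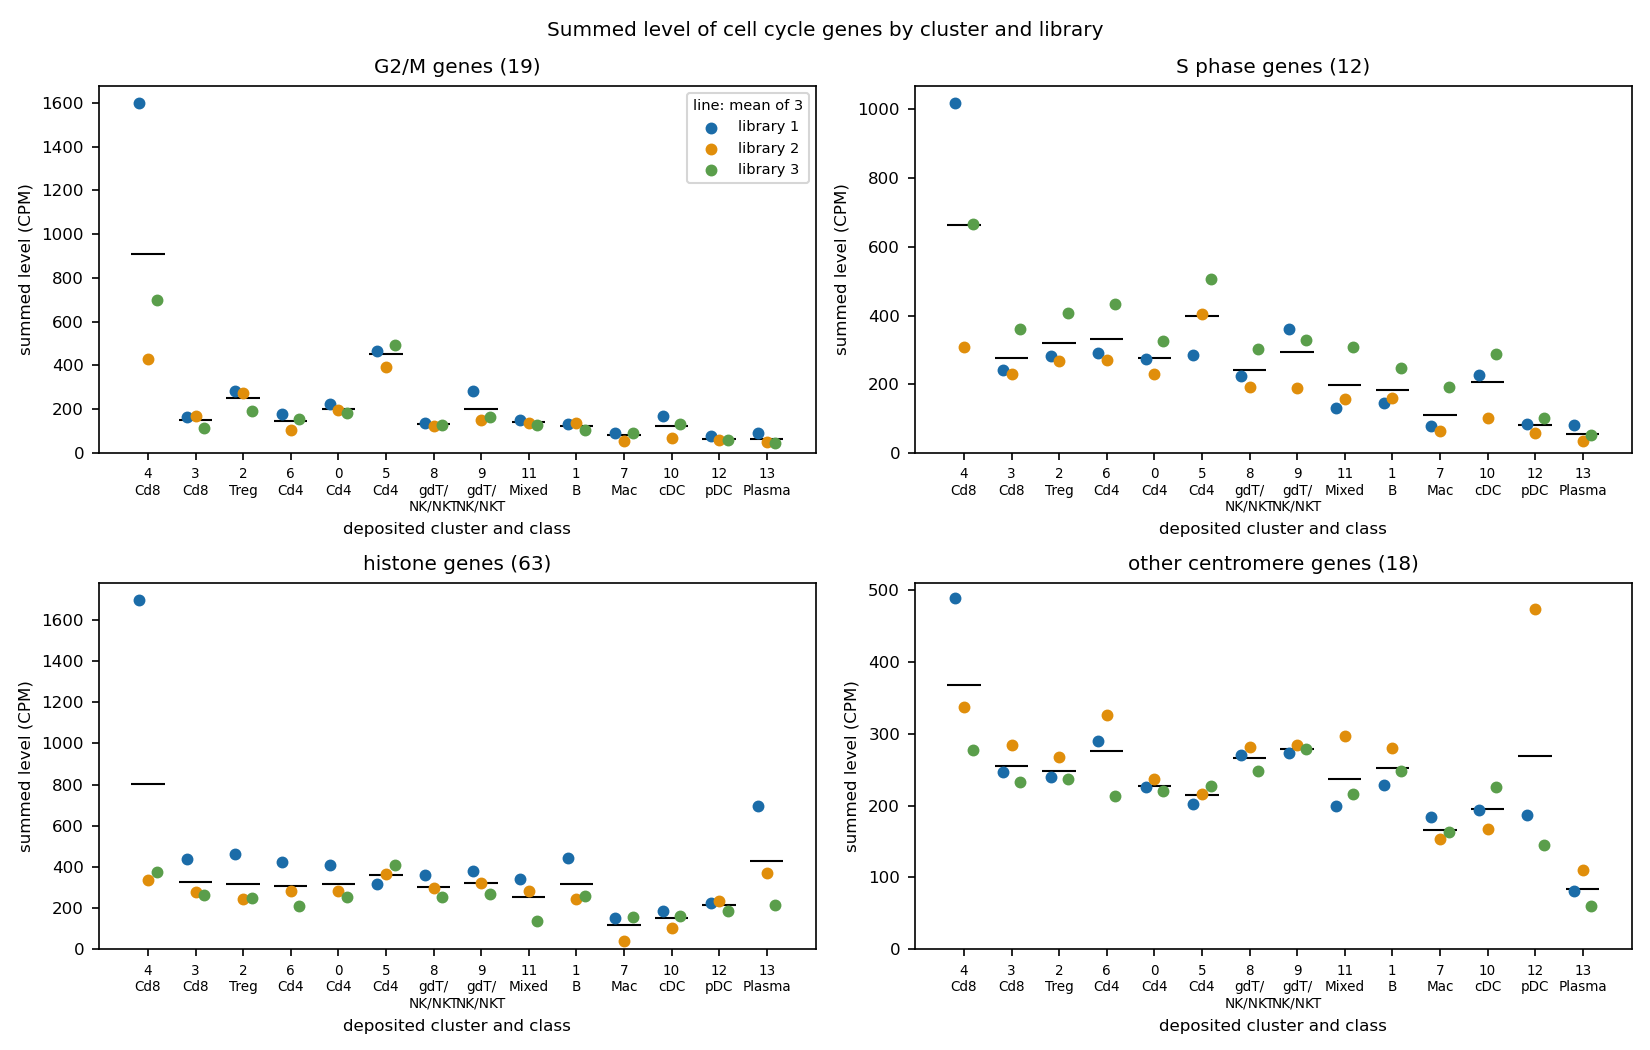
Summed level (CPM, linear axis from 0) of the G2/M, S phase, histone and other centromere genes in each deposited cluster; each dot is 1 library and each line the mean of 3. Cluster 4 has the highest mean of all clusters in each panel, and its libraries spread widely, from 431 to 1599 CPM for G2/M genes.

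Of the S phase genes, Mcm6, a helicase subunit, had the most UMIs (1703, 838 and 1477 in libraries 1, 2 and 3), ahead of Pcna (656, 325 and 774) and Mcm4 (618, 221 and 667). Of the G2/M genes it was Cenpa, the histone variant that marks centromeres (1665, 998 and 797 UMIs), ahead of Top2a, which untangles DNA strands (1397, 202 and 391), and Mki67, the coat protein of mitotic chromosomes (1149, 167 and 474). Of the other centromere genes, Cenpx had 1798, 1014 and 1196 UMIs, Cenpb 929, 449 and 158, and Cenpq 570, 388 and 513. Of the histone genes, the linker histones Hist1h1e (2671, 486 and 673 UMIs) and Hist1h1c (1817, 663 and 598) led, ahead of Hist2h2ac (972, 207 and 339). Stmn1, which takes microtubules apart, had 1494, 278 and 504 UMIs. Exons of Hist1h1e and Hist1h2be overlap on the same strand, as do those of Cenpb and Spef1, so reads there can be shared.

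The G2/M genes were read together in few cells. Of the 11640 cells, 6887 had no UMI of any of the 19 genes, 3479 had 1 of them, and 153 had 5 or more different ones. This last group, set at 5 after the counts were seen, is a range of a continuous measure: 51 cells had 4 of the genes and 24 had exactly 5. In cluster 4, 132 of 1054 cells had 5 or more, which is 86.3% of the 153. By library these were 101 of 553 cells (18.3%, exact 95% binomial interval 15.1 to 21.7%), 7 of 229 (3.06%, 1.24 to 6.20%) and 24 of 272 (8.82%, 5.74 to 12.8%). In cluster 3 it was 0 of 1117 cells, which allows a share of up to 0.269%, and in macrophages 0 of 581, which allows up to 0.516%. Intervals and limits cover counting error only. Conventional dendritic cells had 8 of 294 (2.72%) and the gdT/NK/NKT cluster 9 had 5 of 478, all 5 of them in library 1.

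Cells with 5 or more G2/M genes were deep: their median was 7626 UMIs, against 3367 in the other cells. Of the 153 cells, 49.0% had 2500 genes or more, against 6.18% of the other cells. Among the 7 such cells of cluster 4 in library 2 it was 85.7%. No deposited cell has more than 2997 genes, and whether cells with more were left out earlier, which would lower these shares, was not tested. At equal depth cluster 4 had the highest mean share, but not the highest in library 2. With each cell thinned to 1000 UMIs, the share with 2 or more G2/M UMIs was 19.8, 4.66 and 12.01% in cluster 4, a mean of 12.2 ± 7.58% (SD, n = 3 libraries), against 36.6 ± 4.796% without thinning. Cluster 3 had 1.34 ± 0.451%, Tregs 3.68 ± 1.36%, cluster 0 2.76 ± 0.431% and macrophages, with median depth 7434 UMIs, 0.449 ± 0.0941%. Tregs had 4.41, 4.52 and 2.11% by library, so in library 2 they were near the 4.66% of cluster 4. In all cells it was 3.24 ± 0.763%, against 17.0 ± 3.08% without thinning. Cluster 5 had 10.2, 4.91 and 11.2%, a mean of 8.79 ± 3.397%, and so lay above cluster 4 in library 2, but 593 of its 973 cells were under 1000 UMIs and were left out. Asked for 3 or more different G2/M genes among 1000 UMIs, cluster 4 had 101 of 1048 cells (9.64%), Tregs 2 of 1281 (0.156%) and cluster 5 6 of 380 (1.58%). By library, cluster 4 had 13.8, 2.18 and 7.43% and cluster 5 had 0.901, 0 and 2.11%.

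**Figure D2:**
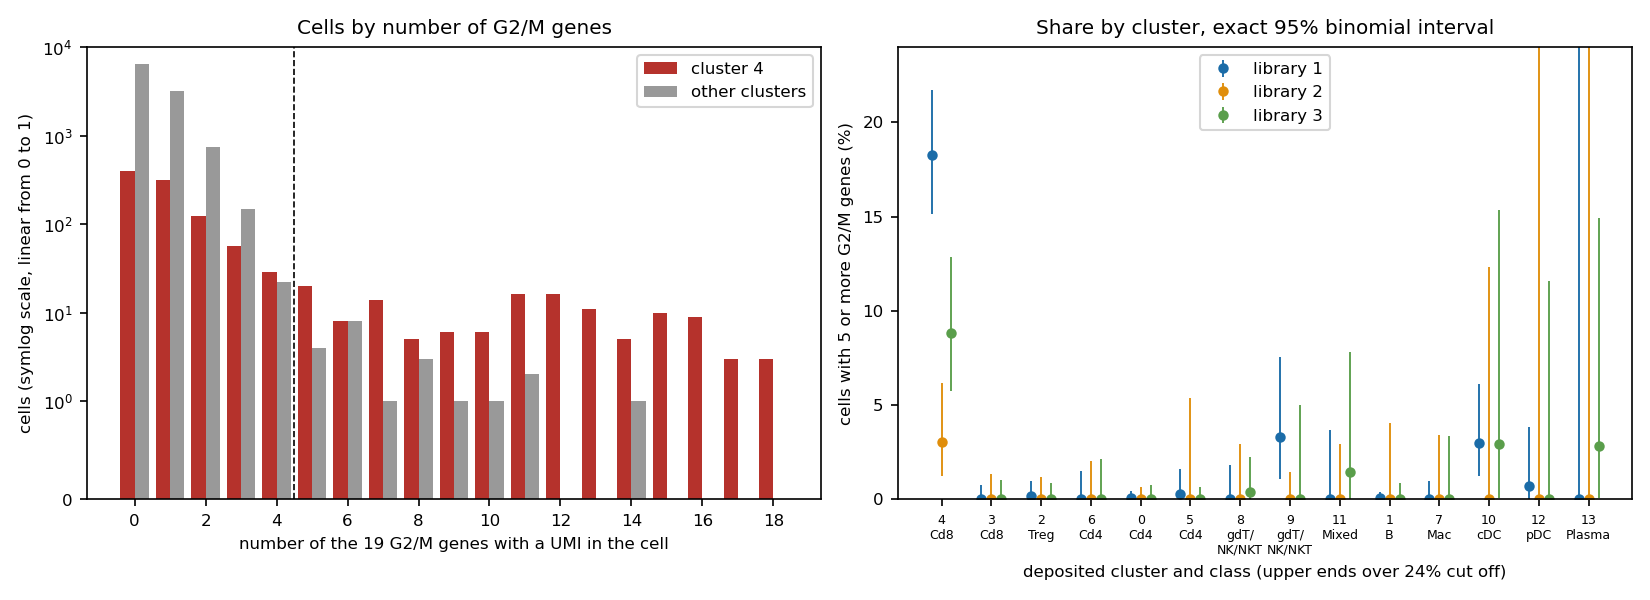
Left: number of cells (symlog axis) by how many of the 19 G2/M genes had a UMI, with cluster 4 beside all other clusters and a dashed line between 4 and 5 genes. Right: percent of cells with 5 or more by cluster and library, with exact 95% binomial intervals; cluster 4 has 18.3, 3.06 and 8.82% in libraries 1, 2 and 3, and intervals of small clusters run off the top.

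Genes of the same group were not equally tied to these cells. For each gene, the share of its UMIs lying in cells with at least 4 other G2/M genes was taken in each library, and genes are ordered by the mean of the 3 libraries. Cells with 5 or more G2/M genes numbered 118 of 6033, 7 of 2333 and 28 of 3274 in libraries 1, 2 and 3. Shares were not adjusted for this number, and its part in the differences between libraries was not tested. Cells chosen by G2/M genes are deep, so the share is set beside all 11526 genes with 50 UMIs or more and a UMI in each library, whose median was 2.51%, with 29 genes over 50%. Among G2/M genes, 6 were over 50% in every library: the cyclins Ccna2 (mean 82.1%) and Ccnb2 (74.8%), Cenpf (73.5%), the apoptosis inhibitor and mitotic regulator Birc5 (72.3%), the kinesin Kif4 (71.8%) and Ube2c (64.3%). Cenpf had 75.9, 74.3 and 70.3% in libraries 1, 2 and 3, so these libraries were near equal. Several others, Mki67 and Top2a among them, were over 50% in library 1 alone. Mki67 had 63.2, 16.2 and 40.3%, and Top2a 56.3, 7.92 and 27.6%. At the low end of the same group were Kif15 (34.0, 4.12 and 21.8%), Cenpa (20.2, 6.51 and 11.8%) and Kif23 (19.4, 1.71 and 11.5%), which were counted mostly in cells with fewer other G2/M genes in every library.

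S phase genes also ranged widely. Pclaf, a partner of Pcna, had 81.8, 21.4 and 43.9% of its UMIs in cells with at least 4 G2/M genes, and the nucleotide enzyme Rrm2 had 74.1, 7.84 and 37.5%. Both were over 50% in library 1 and counted mostly elsewhere in libraries 2 and 3, which held fewer cells with 5 or more G2/M genes. Pcna had a mean of 8.97% and Mcm6 of 5.71%, so the S phase genes with the most UMIs were counted mostly elsewhere. Of the 35 histone genes with 50 UMIs or more, 12 were over 50% in library 1, 1 in library 2 and 0 in library 3. The linker histone Hist1h1b had 82.6, 68.1 and 18.2%, and Hist1h2bm 80.0, 12.5 and 44.4%. The linker histone Hist1h1c had a mean of 6.77%, Hist4h4 of 3.87% and Hist3h2a of 0.595%. Of the 17 other centromere genes with 50 UMIs or more, 4 passed 50% in library 1 and 0 in libraries 2 and 3; Cenpn had the highest mean, 35.6%, and Cenpx had 4.91%.

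**Figure D3:**
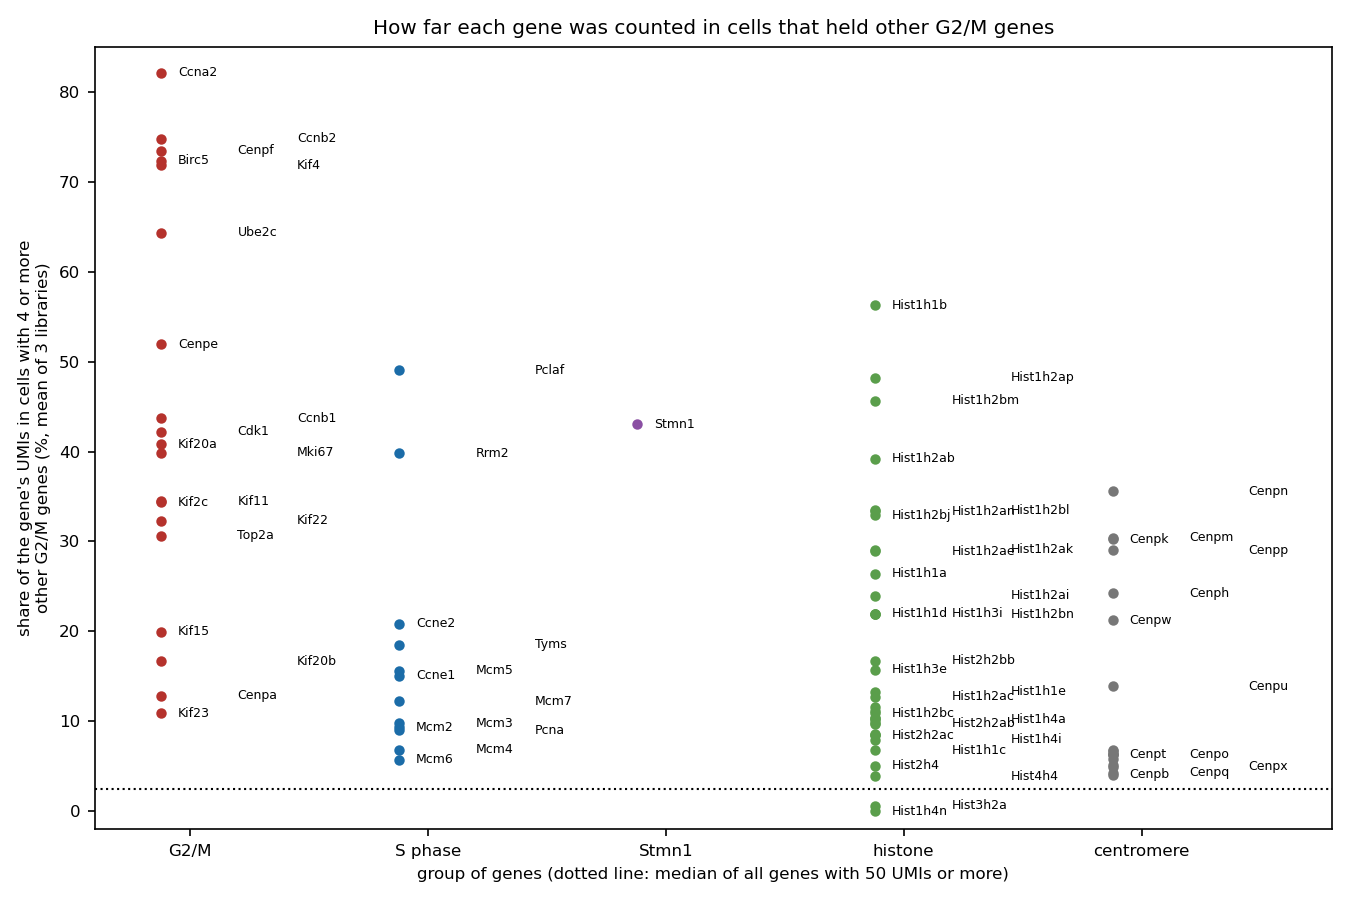
Percent of each gene's UMIs that lie in cells with 4 or more other G2/M genes, as the mean of 3 libraries, by group of genes, for genes with 50 UMIs or more; each dot is 1 gene, names stand at the height of their dot, and some crowded dots are unnamed. The dotted line is the median of all such genes, 2.51%; G2/M genes run from Kif23 at 10.9% to Ccna2 at 82.1%.

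Promoters of these groups were searched for short motifs known to bind cell cycle regulators. RefSeq windows of 300 bases (250 before and 50 after the start, build GRCm38.p6) matched 102 of the 113 genes, and motifs were searched on both strands as exact letters. The cell cycle homology region, TTTGAA, through which the DREAM complex and its B-MYB form act on late cell cycle genes, was in 14 of 17 G2/M promoters (82.4%), 27 of 57 histone promoters (47.4%), 1 of 10 S phase promoters and 3 of 18 other centromere promoters, against 12.9% of 12016 genes of the count table. Among histone promoters it was in 11 of 14 of H2B (78.6%) and 10 of 17 of H2A (58.8%). E2F sites, searched as TTTCCCGC, TTTGGCGC, TTTCGCGC and TTTGCCGC, which can overlap each other, were in 5 of 10 S phase and 2 of 17 G2/M promoters, against 3.87%. CCAAT, the NF-Y site, was in 76.5% of G2/M, 80.0% of S phase and 86.0% of histone promoters, against 38.5%. The octamer ATTTGCAT, known in H2B promoters, was in 5 of 14 H2B and 7 of 17 H2A promoters, against 1.43%; neighbouring H2A and H2B genes share promoters, so these windows overlap. A match is a run of letters, not a shown binding site.

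Below, 200 bases (170 before and 30 after the RefSeq start, on the gene's strand) are shown for G2/M genes along the range of shares given above. Ccnb2 (chr9:70421525-70421724, minus) had a high mean share (74.8%). Cdk1 (chr10:69352883-69353082, minus) and Top2a (chr11:99024160-99024359, minus) lay between, at 42.2 and 30.6%. Cenpa (chr5:30666716-30666915, plus) and Kif23 (chr9:61946770-61946969, minus) had low shares, and Mcm5 (chr8:75109339-75109538, plus) is an S phase gene. Capitals mark the 3 searched motifs (cell cycle homology region, NF-Y and E2F) or their reverse complements.
Ccnb2: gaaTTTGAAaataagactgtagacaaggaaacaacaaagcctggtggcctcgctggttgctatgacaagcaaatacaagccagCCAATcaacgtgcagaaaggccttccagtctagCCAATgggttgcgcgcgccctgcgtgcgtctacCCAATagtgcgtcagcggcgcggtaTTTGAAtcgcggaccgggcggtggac
Cdk1: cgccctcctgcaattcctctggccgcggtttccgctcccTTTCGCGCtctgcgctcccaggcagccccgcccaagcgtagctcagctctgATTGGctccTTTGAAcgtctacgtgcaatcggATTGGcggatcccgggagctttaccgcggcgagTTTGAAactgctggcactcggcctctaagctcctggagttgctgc
Top2a: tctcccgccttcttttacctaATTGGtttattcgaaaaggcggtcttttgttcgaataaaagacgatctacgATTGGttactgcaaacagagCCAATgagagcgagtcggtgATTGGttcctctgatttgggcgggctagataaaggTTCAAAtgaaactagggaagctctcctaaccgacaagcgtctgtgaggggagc
Cenpa: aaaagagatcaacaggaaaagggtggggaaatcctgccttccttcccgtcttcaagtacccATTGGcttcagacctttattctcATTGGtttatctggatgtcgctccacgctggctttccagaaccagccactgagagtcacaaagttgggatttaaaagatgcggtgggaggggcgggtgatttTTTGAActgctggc
Kif23: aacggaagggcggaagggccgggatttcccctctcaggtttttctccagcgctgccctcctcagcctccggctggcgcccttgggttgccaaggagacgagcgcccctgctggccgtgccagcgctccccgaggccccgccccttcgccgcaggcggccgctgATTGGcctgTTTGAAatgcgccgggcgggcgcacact
Mcm5: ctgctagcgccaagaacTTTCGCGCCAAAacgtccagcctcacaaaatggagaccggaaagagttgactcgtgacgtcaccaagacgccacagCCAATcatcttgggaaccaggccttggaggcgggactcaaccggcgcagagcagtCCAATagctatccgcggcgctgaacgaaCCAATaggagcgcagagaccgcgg
Cenpa and Kif23 each hold 1 TTTGAA and at least 1 CCAAT in this stretch, as Top2a does. Mcm5 holds 2 overlapping E2F runs and no TTTGAA.

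Cluster 4 against cluster 3 compares the 2 CD8 clusters within each library. Sums of UMIs were tested with edgeR's quasi-likelihood test, and a gene is called at a Benjamini-Hochberg adjusted p under 0.05 over the 10545 genes that passed a filter on low counts. Of the 113 genes, 57 passed: 15 G2/M, 11 S phase, 13 other centromere, 17 histone genes and Stmn1. Some passed through cluster 4 alone and so had to differ, which is why the counts here only describe. 32 were called higher and 0 lower in cluster 4, where 7.85% of all tested genes were called higher and 6.86% lower. Without the filter 47 of 113 were called higher and 0 lower. DESeq2 called fewer genes, 25, and 0 of them lower. With edgeR, 37 of the 57 had an unadjusted p under 0.05. The median log2 fold change was 3.47 for G2/M, 1.07 for S phase, 0.88 for histone and 0.44 for other centromere genes, against 0.00 over all tested genes. In 24 of the 57 genes every library of cluster 4 lay above every library of cluster 3, as it did in 10.7% of all tested genes.

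Of the G2/M genes, 14 of 15 rose, by the largest folds for mitotic regulators. Ccnb2, a mitotic cyclin, had 69.9, 26.1 and 38.2 CPM in cluster 4, against 1.28, 0 and 1.82 CPM in cluster 3 (log2 fold change 5.27, SE 0.634, edgeR adjusted p = 1.74e-07). Ube2c, which marks mitotic cyclins for breakdown, had 101, 33.3 and 51.3 CPM, against 5.75, 2.50 and 1.82 CPM (4.09, SE 0.360, edgeR adjusted p = 2.47e-10). In both genes all libraries of cluster 4 lay above those of cluster 3. Log2 fold changes were 5.21 for Cenpf and 4.29 for Cenpe, which link chromosomes to the spindle, 4.96 for Birc5, 4.93 for Ccna2 and 3.47 for the spindle kinesin Kif15. Kif4 had 1 UMI in cluster 3 and 89 in cluster 4, a ratio of 68.9 with a 95% counting interval of 12.1 to 2752. Cenpa rose less, by 1.33 (SE 0.193), with 169, 139 and 104 CPM in cluster 4, against 43.4, 83.3 and 34.0 CPM in cluster 3. Kif23, a kinesin of cytokinesis, was the 1 tested G2/M gene not called: 34.6, 16.6 and 21.3 CPM in cluster 4, against 30.01, 30.01 and 21.9 CPM in cluster 3, and the clusters overlap.

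Of the S phase genes 8 of 11 rose. Pclaf showed the largest fold of all the genes: 225, 10.9 and 41.9 CPM in cluster 4, against 1.92, 0.833 and 1.82 CPM in cluster 3 (log2 fold change 5.60, SE 0.664, edgeR adjusted p = 1.34e-07). Library 1 of cluster 4 was far above its libraries 2 and 3 here. Mcm6 had 180, 132 and 231 CPM in cluster 4, against 70.9, 55.8 and 86.3 CPM in cluster 3, with no overlap (1.26, SE 0.196, edgeR adjusted p = 1.49e-05). Pcna was not called, with 65.5, 28.2 and 86.4 CPM in cluster 4, against 31.9, 40.0 and 61.4 CPM in cluster 3 (0.39, SE 0.219), and Mcm4 and Ccne1, the cyclin of S phase entry, were not called either.

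Stmn1 had 408, 89.8 and 123 CPM in cluster 4, against 28.1, 18.3 and 30.4 CPM in cluster 3 (2.86, SE 0.336, edgeR adjusted p = 1.20e-07). Of 17 histone genes 6 rose. Hist1h1b had 359, 25.3 and 33.2 CPM in cluster 4, against 7.66, 4.17 and 12.2 CPM in cluster 3 (4.03, SE 0.619, edgeR adjusted p = 1.20e-05), and library 1 of cluster 4 was far above libraries 2 and 3. Hist1h1c, with 146, 65.9 and 46.3 CPM against 88.1, 57.5 and 46.2 CPM, was not called. Of 13 other centromere genes 3 rose, among them Cenpk (2.74) and Cenph (2.64) of the inner kinetochore. Cenpx, which also serves DNA repair, was not called: 116, 111 and 92.7 CPM in cluster 4, against 70.2, 97.5 and 94.8 CPM in cluster 3.

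Library 1 carried much of the count. Without it 17 genes were called higher (12 G2/M, 2 S phase, 2 histone genes and Stmn1), against 37 without library 2 and 31 without library 3. The share of all tested genes called in fits without a library is not given, here or below. A loss of calls on leaving out a library may thus not be particular to the chosen genes. The 16 genes called whichever library was left out were Ube2c, Cenpf, Birc5, Mki67, Ccnb2, Top2a, Kif11, Cenpe, Cenpa, Kif15, Kif4, Pclaf, Mcm6, Hist1h2ap, Hist1h1d and Stmn1. Mcm5 had a log2 fold change of 0.59 (edgeR adjusted p = 0.496) without library 1, and Hist1h1e had 0.37 (edgeR adjusted p = 0.586). Cells of cluster 4 were deeper, with a median of 4848 UMIs, against 3660 UMIs in cluster 3. The 5 macrophage markers summed to 89.4, 5.79 and 8.77 CPM in cluster 4, against 45.98, 12.5 and 7.90 CPM in cluster 3, highest in library 1 of both, and the part of depth and of these transcripts in the result was not tested.

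**Figure D4:**
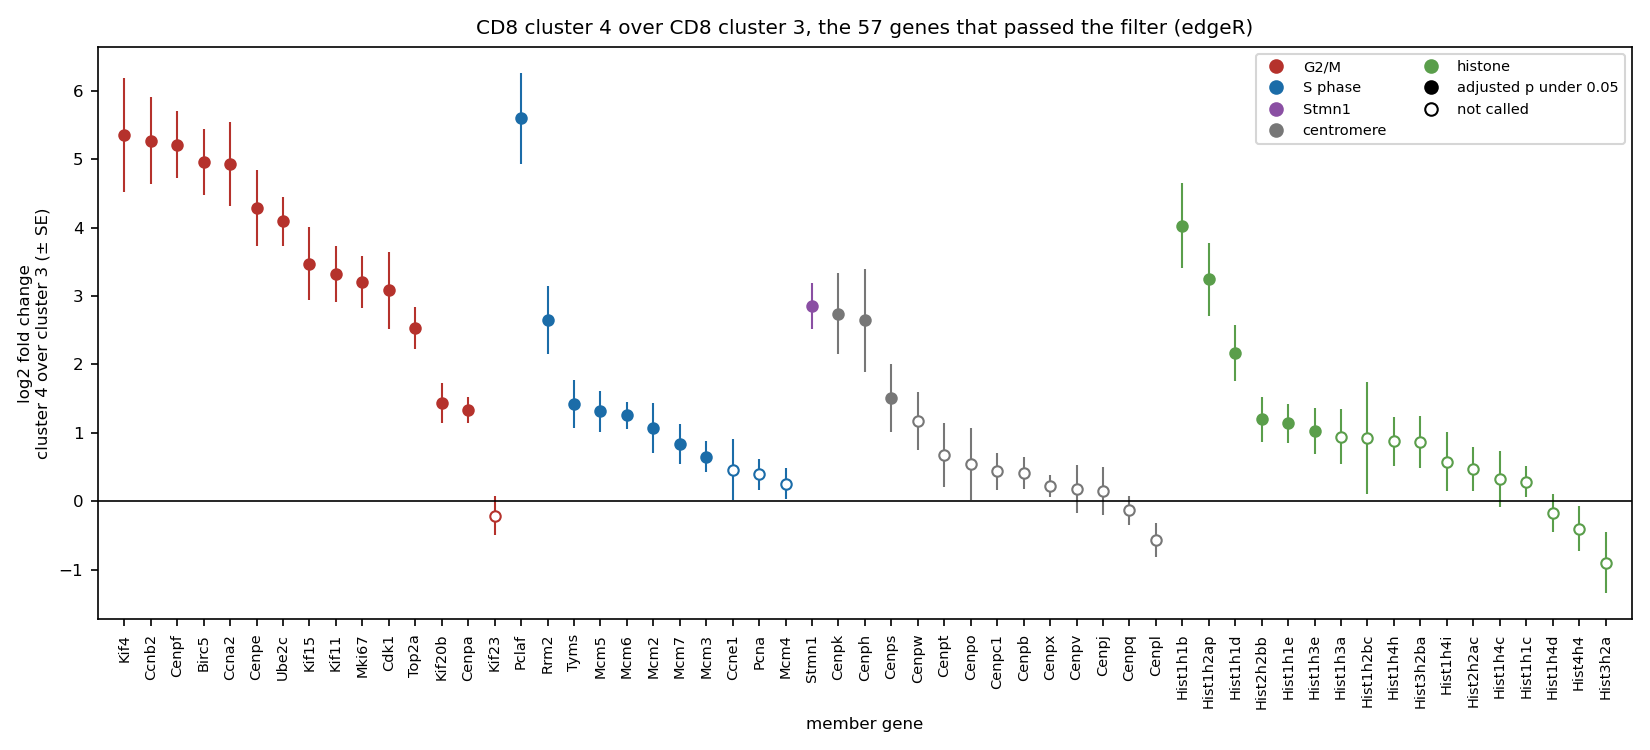
Log2 fold change of CD8 cluster 4 over CD8 cluster 3 with its standard error for the 57 genes that passed the filter, grouped by colour; filled dots have an edgeR adjusted p under 0.05. G2/M genes run from 5.36 (Kif4) to -0.21 (Kif23), and histone and other centromere genes each include genes on both sides of 0.

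Inside cluster 4 the cells with 5 or more G2/M genes were set beside its other cells, as a description, since the G2/M genes chose them. Library 1 has 101 of the 132 cells, so shares are given by library. The cells held 85.5, 52.5 and 71.4% of the cluster's G2/M UMIs in libraries 1, 2 and 3, and 80.3, 47.6 and 61.2% of those of Stmn1. They held 80.1, 25.3 and 39.8% of histone, 61.6, 6.82 and 23.8% of S phase and 54.3, 9.87 and 25.3% of other centromere UMIs. For these 3 groups they held the larger part in library 1 alone. Histone genes, which took no part in the choice, summed to 4619, 1918 and 1820 CPM in these cells, against 479, 262 and 245 CPM in the other cells of the cluster and 437, 280 and 264 CPM in cluster 3. S phase genes had 2131, 475 and 1943 CPM, against 555, 300 and 553 CPM in the other cells of cluster 4, which in turn were above the 240, 230 and 360 CPM of cluster 3. In library 2 the first value rests on 7 cells. Of the 153 cells with 5 or more G2/M genes, 84 also had 5 or more S phase genes.

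In a further fit, all cells of 5 or more G2/M genes were left out of every cluster. This takes 132 cells from cluster 4 and 0 from cluster 3, so the values of the 19 G2/M genes that chose the cells are set in part by the choice and are not read here. 48 of the 113 genes passed the filter, 8 were called higher and 3 lower, where 5.996% of all tested genes were called higher and 6.348% lower. Both counts include G2/M genes, so a fall from the fit of all cells was partly fixed by the choice. Of the genes that took no part in the choice, those higher were Mcm6 (1.24, edgeR adjusted p = 2.29e-05), Pclaf (3.76), Stmn1 (1.40) and Hist1h1b (1.46), and those lower were Hist1h4d (-0.93) and Cenpl (-0.89). The level of Mcm6 was 178 ± 46.7 CPM in the other cells of cluster 4, 184 ± 97.1 CPM in the cells with 5 or more, and 71.0 ± 15.2 CPM in cluster 3 (SD, n = 3 libraries each).

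Against the mean of the other 11 tested clusters, cluster 4 had 49 of 57 genes called higher (17.7% of all tested genes were) and 1 lower (8.80%), Hist3h2a at -0.93. All 15 G2/M and all 11 S phase genes that passed the filter were among the 49, as were 15 of 17 histone and 7 of 13 other centromere genes. Here too some genes passed the filter through cluster 4 alone and so had to differ, and the counts only describe. Without the filter 85 of 113 were called higher and 0 lower. Without library 1 it was 30. Of the 57 genes, 39 had their highest mean level in cluster 4 and 9 in the shallow cluster 5. The matching shares of all tested genes are not given, and the filter favours cluster 4 for genes that passed through it alone. These counts of highest levels thus only describe, and may not be particular to the chosen genes.

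Among CD4 T cells, regulatory T cells of cluster 2 were compared with cluster 0, the largest Cd4 cluster. 1 gene was called higher (6.01% of all tested genes were) and 1 lower (5.06%). Cenpa had 140, 199 and 103 CPM in Tregs, against 56.8, 75.4 and 48.8 CPM in cluster 0, with no overlap (1.14, SE 0.183, edgeR adjusted p = 1.73e-05). Only 1 of 1287 Tregs had 5 or more G2/M genes, so this level of Cenpa was counted in cells with few other G2/M genes. Kif15 had 6.66, 8.27 and 0.608 CPM in Tregs, against 43.8, 27.0 and 20.3 CPM in cluster 0 (-2.76, SE 0.435, edgeR adjusted p = 1.30e-05). Kif15 is known for holding spindle poles apart, and 1 of 2225 cells of cluster 0 had 5 or more G2/M genes. Both genes stayed called on leaving out each library in turn. Mcm6 (0.33 in a fit of these 2 clusters alone, edgeR adjusted p = 0.0261), Cenpx and Hist1h1e were not called in the fit of all clusters.

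Cluster 6, also named Cd4, was compared with cluster 0. 1 gene was called higher (3.03% of all tested genes were) and 2 lower (3.89%), where 6.91% were called in either direction. Kif23 had 3.29, 6.75 and 5.22 CPM in cluster 6, against 34.0, 35.1 and 36.2 CPM in cluster 0, where the 3 libraries were near equal (-2.90, SE 0.466, edgeR adjusted p = 2.75e-05). It stayed called on leaving out each library in turn. Kif15 had 1.65, 5.06 and 5.22 CPM in cluster 6, against 43.8, 27.0 and 20.3 CPM in cluster 0 (-3.05, SE 0.581, edgeR adjusted p = 0.000347; 0.0997 without library 1). Mcm6 had 148, 147 and 190 CPM in cluster 6, against 96.7, 81.4 and 84.5 CPM in cluster 0, with no overlap (0.70, SE 0.201, edgeR adjusted p = 0.0246; 0.262 without library 2 and 0.131 without library 3). Cenpx, Hist1h1e and Cenpa were not called. The Treg and cluster 6 comparisons share cluster 0.

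**Figure D5:**
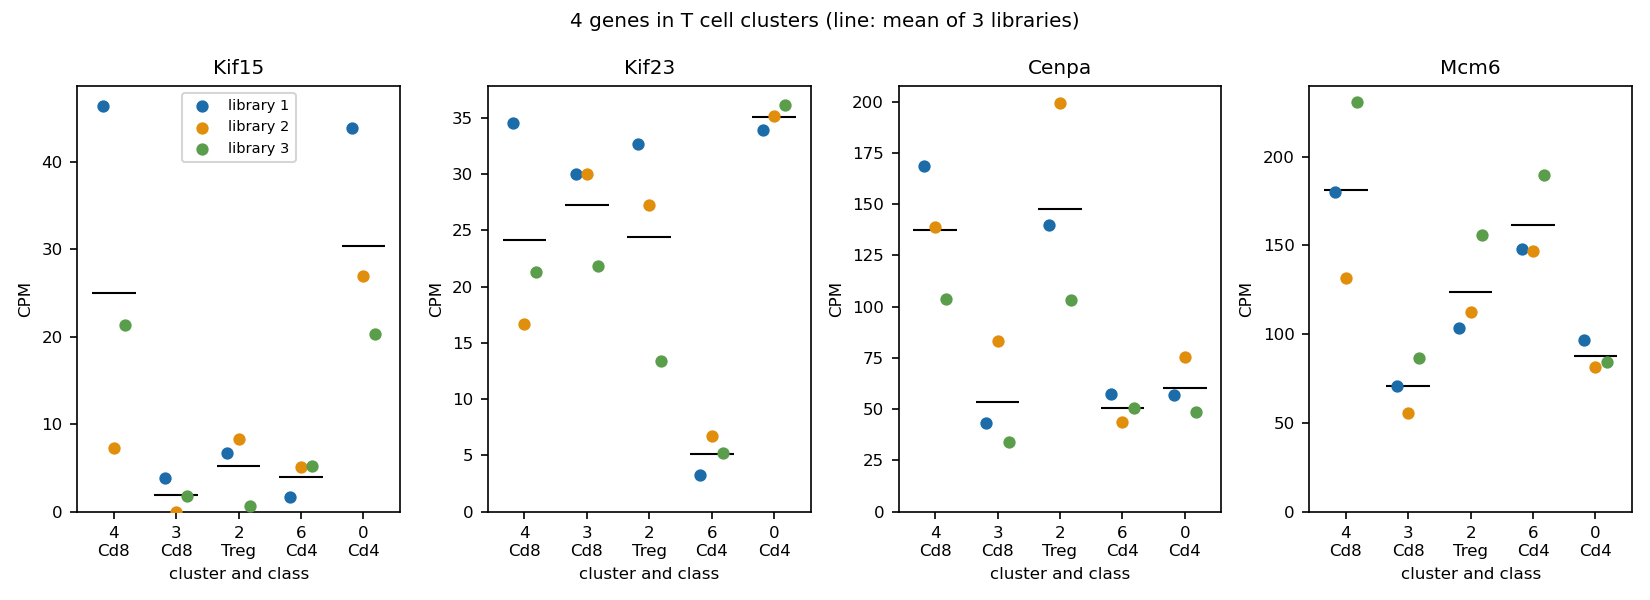
Level (CPM, linear axis from 0) of Kif15, Kif23, Cenpa and Mcm6 in 5 T cell clusters; dots are libraries and lines means of 3. Kif15 is high in clusters 4 and 0, Kif23 is low in cluster 6, Cenpa is high in cluster 4 and Tregs, and Mcm6 is high in clusters 4 and 6.

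Other clusters were each set against the mean of the other 11 tested. Macrophages had 30 of 57 genes lower (21.7% of all tested genes were) and 3 higher (29.4%). Mcm6 fell most clearly there, by 2.04 (SE 0.232, edgeR adjusted p = 1.49e-09), to 17.5 ± 14.6 CPM. Hist3h2ba had no UMI in macrophages of any library. Cenpb, which binds centromeric satellite repeats, was 1.06 higher in macrophages (SE 0.173), at 52.2, 48.3 and 32.8 CPM. Without library 1, 20 of these 33 calls were lost. Conventional dendritic cells had 15 genes lower (19.1%) and 5 higher (25.4%, and 44.5% in either direction). Ube2c was 2.14 higher (SE 0.365), at 17.6, 3.27 and 27.7 CPM, and Birc5 2.13 higher (SE 0.454), at 16.1, 0 and 19.8 CPM; here too 15 of 20 calls were lost without library 1.

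B cells had 8 genes lower (14.3%) and 6 higher (22.1%, and 36.4% in either direction); 11 of these 14 calls were lost without library 1, and 2 stayed on leaving out each library in turn. Cenps, a centromere protein also used in DNA repair, was at 44.9, 66.8 and 47.2 CPM in B cells, against means of 1.74 to 12.2 CPM in the other tested clusters (3.85, SE 0.261, edgeR adjusted p = 4.03e-15). Its partner Cenpx was not called in B cells (-0.16, SE 0.129). In cluster 0, 4 genes were higher (13.6%), Kif15 by 3.02 (SE 0.272) and Kif23 by 1.44 (SE 0.197) among them, and 0 lower (6.61%, and 20.2% in either direction). Tregs had 4 higher (14.1%) and 2 lower (5.88%, and 19.9% in either direction), cluster 6 had 3 higher (9.72%) and 2 lower (5.39%), and cluster 3 had 9 higher (12.7%) and 0 lower (6.38%). On leaving out each library in turn, 3 of 4 calls stayed in cluster 0, 3 of 6 in Tregs, 5 of 9 in cluster 3 and 1 of 5 in cluster 6. Tregs lost 3 calls without library 1 and 3 without library 2, and cluster 6 lost 4 and 4.

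The shallow cluster 5 had 11 genes higher (23.8%) and 3 lower (22.4%), with Cenpa 0.89, Top2a 1.16 and Mki67 1.30 higher and Cenpx 2.47 lower; 9 of the 14 calls were lost without library 3. The gdT/NK/NKT cluster 9 had 6 higher (10.0%), such as Kif11 (1.82) and Stmn1 (0.99), and 0 lower (5.22%), and each of the 6 was lost on leaving out at least 1 library. The Mixed cluster 11 had 0 higher (8.76%) and 1 lower (3.50%), Mcm6 at -1.25 (edgeR adjusted p = 0.0515 without library 2). The gdT/NK/NKT cluster 8 had 0 higher (13.8%) and 0 lower (7.44%, and 21.2% in either direction) with edgeR, 0 with DESeq2, and 7 with an unadjusted p under 0.05.

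Genes of the same processes outside the chosen set were counted from set lists. In cluster 4 against cluster 3, 16 of 25 tested replication genes were higher and 1 lower, and 19 of 23 tested mitosis genes were higher and 0 lower, where 7.85% of all tested genes were higher and 6.86% lower. The median log2 fold changes were 1.05 and 1.68, against 0.00 over all tested genes. Thymidine kinase Tk1 averaged 29.7 ± 19.8 CPM in cluster 4 and 3.80 ± 0.926 CPM in cluster 3, and the Aurora B partner Cdca8 50.5 ± 45.3 CPM and 3.32 ± 0.883 CPM (SD, n = 3 libraries each). Without library 1, 0 replication genes and 8 mitosis genes were called higher. Of 13 tested inhibitors and quiescence genes, 4 were higher and 4 lower in cluster 4, to be read against the same 7.85% and 6.86%. Klf2, which keeps T cells quiescent, averaged 69.6 ± 38.6 CPM in cluster 4 and 503 ± 266 CPM in cluster 3 (-2.92, SE 0.323), and the kinase inhibitor gene Cdkn2a 27.9 ± 7.57 CPM and 4.09 ± 2.25 CPM (2.72, SE 0.354). Of 6 G1 cyclins and kinases, Cdk6 was higher (0.90) and Ccnd3 lower (-0.69), and 4 of 9 transcription factors of the cycle were higher, E2f1 (1.97) among them.

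In cluster 6 against cluster 0, Klf2 was lower (-3.39, SE 0.356) and Cdkn2a (2.64, SE 0.315), Cdkn2b (2.77, SE 0.389) and Cdk6 (1.34, SE 0.224) were higher, while 0 of 25 replication genes were called. Of 13 tested inhibitors and quiescence genes 3 were higher and 2 lower, and of 23 mitosis genes 0 were higher and 1 lower. Among all tested genes 3.03% were higher and 3.89% lower. In Tregs against cluster 0, 0 replication and 0 mitosis genes were called in either direction, where 6.01% of all tested genes were higher and 5.06% lower. Of 13 tested inhibitors and quiescence genes, 1 was higher and 2 lower. The higher one was the kinase inhibitor gene Cdkn1a (1.52, SE 0.277), at 156 ± 41.2 CPM in Tregs and 49.5 ± 8.97 CPM in cluster 0.

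The authors' own phase calls, whose gene lists are not given in the sources used here, put 1511 cells in G2M, 3740 in S and 6389 in G1. Of the 153 cells with 5 or more G2/M genes, 121 were called G2M, 30 S and 2 G1. Of the 1511 cells called G2M, 564 (37.3%) had no UMI of any of the 19 G2/M genes, and of the 3740 called S, 1103 (29.5%) had no UMI of the 12 S phase genes. By these calls 16.1 ± 8.05% of cluster 4, 19.1 ± 7.55% of Tregs and 17.3 ± 3.76% of cluster 0 were in G2M (mean and SD, n = 3 libraries each). Cells with 5 or more G2/M genes were 12.5%, 0.0777% and 0.0449% of these clusters, with the cells of all libraries pooled. All 85 cells with an authors' G2M score above 1 had 5 or more G2/M genes, and 82 of them were in cluster 4. A further 68 cells with 5 or more were not above 1. The authors' list may share genes with the 19, so this overlap is no independent check.

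Several genes differed by read end. Cenpb had 11.5 CPM in the 5′ library 3, against 41.1 and 39.4 CPM in the 3′ libraries 1 and 2; Hist1h4c had 3.48 CPM, against 12.9 and 14.1 CPM; Hist3h2a had 1.09 CPM, against 12.4 and 15.9 CPM. Pcna ran the other way with 56.1 CPM, against 29.0 and 28.5 CPM, as did Hist1h2ap with 13.6 CPM, against 4.604 and 3.33 CPM. Library 3 alone is 5′, so read end and library cannot be told apart. Coding sequences of 38 of the 63 histone genes have a copy at 97% identity or more among the others, and 6 an identical copy, so how their reads were shared out is uncertain.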

How the data were processed

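CD45+ sciatic nerve cells were measured by 10x Genomics single-cell RNA-seq in 3 libraries. Cell Ranger 5.0.1, Seurat 4.0 and mouse genome mm10 were used, per the submitters' processing notes. The authors deposited raw UMI counts per gene and cell, each cell's percentage of mitochondrial UMIs, its S and G2M score (the authors' gene lists are not given in the sources used here), phase, cluster and class. Whether counting used strand is not given in the sources used here.

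Counts were summed per cluster and library for the 12 clusters with at least 20 cells in each library. edgeR 4.0.16 (R 4.3.3) fitted all sums at once by its quasi-likelihood test, with TMM scaling, filterByExpr and library as a block; p-values were Benjamini-Hochberg adjusted over all 10545 genes tested. The block holds because all clusters of a library come from the same nerves; deviations of the compared clusters correlated at 0.668 to 0.912 across genes. The procedure was tested on simulated data. DESeq2 1.42.0 was an alternative. Thinning to 1000 UMIs used the exact hypergeometric chance, and scanpy 1.11.5 called 84 doublets, which stayed in except in an alternative. Libraries held 11398628 to 22587246 UMIs.

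Members and gene lists were chosen with earlier results of these data known. Named genes are, by group, the 3 with most UMIs, and, by comparison, up to 10 called genes of largest fold and the 3 most abundant not called; other members are named for their values.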

Additional observations from a re-analysis of the deposited data

How the results depend on the processing

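Without the library block, the calls of all clusters against the others numbered 56 higher and 23 lower, against 100 and 62 with it; cluster 4 against 3 gave 13 higher, Tregs against cluster 0 gave 0 and 0, cluster 6 against 0 gave 0 higher and 1 lower, and cluster 4 against the others 0 lower. Without a filter on low counts, cluster 4 against the others gave 85 higher and 0 lower. With the 2 compared clusters alone, Tregs gave 2 higher and 3 lower, and cluster 6 gave 2 higher. Without cells of 5 or more G2/M genes, an alternative chosen after seeing the data, cluster 4 gave 8 higher and 3 lower against cluster 3, and 27 higher and 0 lower against the others. G2/M genes chose the cells left out, so these counts are partly set by the choice. Leaving out each library gave 62 to 98 calls higher and 21 to 56 lower over all clusters, 17 to 37 higher in cluster 4 against 3, 30 to 56 higher and 0 to 0 lower in cluster 4 against the others, and 0 to 1 higher and 1 to 2 lower in cluster 6 against 0. Shares of all tested genes called are given above only for cluster 4 against 3 without cells of 5 or more G2/M genes. A change in the other counts may thus not be particular to the chosen genes.

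The share of cells with 2 or more G2/M UMIs in cluster 4 (12.2%) was 27.0% at 1 or more UMIs, 36.6% without thinning, and 8.33 to 15.9% leaving out a library. The share of cells with 2 or more G2/M UMIs in all cells (3.24%) was 16.3% at 1 or more UMIs, 1.24% at 3 or more, 6.80% thinned to 2000 UMIs, 17.0% without thinning, 1.99% without Cenpa and 1.04% for 5 or more different genes. Log2 fold changes turned sign for Hist1h1c, Cd8 cluster 4 against Cd8 cluster 3, without the cells of 5 or more G2/M genes (-0.15), and for Cenpx, Cd4 cluster 6 against Cd4 cluster 0, without the filter (-0.000433) and over the left-out libraries (-0.0342 to 0.0611); none of these was called in any of these fits, and the causes were not tested. Over 105 single-gene results, 882 alternative values kept direction and call, 158 lost the call, 1 gained it and 3 changed sign. Depth limits low genes: Kif4 had 1 UMI in cluster 3.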
